A study of Mus musculus with 18 samples.

Results

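The transcription factor gene Myc and 35 genes of ribosome biogenesis were followed through mouse bone marrow cultures of 4 days. The 36 genes are a given list, found by gene symbol in the GENCODE M21 annotation among the 55536 gene IDs of the count tables, and all 36 had enough counts to be tested. Bulk poly(A) RNA was sequenced in 18 libraries, 3 for each combination of genotype and culture, and each library came from the pooled marrow of 3 mice. All mice were BALB/c, either labelled Cysltr1-/- (deficient for the cysteinyl leukotriene receptor gene Cysltr1) or WT. Marrow was grown with 40 ng/mL GM-CSF and 40 ng/mL IL-6, with 40 ng/mL GM-CSF and 50% (v/v) medium conditioned for 24 h by EMT6 mouse mammary carcinoma cells, or with 40 ng/mL GM-CSF alone. Every group therefore received GM-CSF, a cytokine that drives marrow cells towards myeloid fates, and the labels name no sort of the cultured cells.

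MYC is a transcription factor that binds DNA as a dimer with MAX, preferentially at the E-box CACGTG, and genes of ribosome production are among its best known targets. Ribosomes are built in the nucleolus. RNA polymerase I transcribes the long precursor of ribosomal RNA, small nucleolar RNPs modify it, the small subunit processome and large subunit factors fold and cleave it, and further factors finish each subunit on its way to the cytoplasm. Growing and dividing myeloid progenitors are known to hold high levels of MYC and of these factors, and both decline as granulocytes mature.

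The E-box that MYC and MAX bind was searched in RefSeq windows (build GRCm38.p6) from 250 bases before to 50 bases after the gene start, which exist for 30 of the 36 genes. A CACGTG, a motif that reads the same on both strands, occurred in 9 of the 30 genes (30%), against 8.09% of the 27025 genes with such a window. In the 250 bases before the start only 1 of 30 genes (Nop2, 3.33%) held it, against 6.86% of all genes. In the 50 bases after the start it was present in 8 of 30 (26.7%), against 1.28% of all genes. It was present there in 1.41% of the 23296 genes at least as rich in G and C as the lowest among the 30. That richness was taken from the 250 bases before the start. Its median was 54.4% in those genes and 59.2% in the 30, so the match was loose. Of 135 other ribosome biogenesis genes with a window, 11 (8.15%) held it in the 50 bases after the start. By list this ran from 0 of 34 processome and 0 of 13 snoRNP genes to 2 of 9 late small subunit genes (22.2%). Of 31 known MYC targets outside the nucleolus 1 held it there (3.23%), and of 20 cell cycle genes none did. The split of the window at the start was made after the positions were seen, and a match describes letters in the window, not a bound site. Other motifs were also more frequent than among all genes in the 300-base windows, searched on both strands after the data were seen: CCGGAAG in 10 of 30 genes (33.3%, against 9.93%) and CACGCG in 8 of 30 (26.7%, against 10.5%). Overlap among the motifs was not counted. The 9 stretches of 30 bases are printed because they carry the motif known for MYC, 5′ to 3′ on the gene's own strand, with CACGTG in capitals.
Mybbp1a: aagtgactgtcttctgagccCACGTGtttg
Wdr43: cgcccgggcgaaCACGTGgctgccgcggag
Utp4: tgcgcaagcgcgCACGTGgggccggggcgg
Utp20: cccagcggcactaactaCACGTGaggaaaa
Tsr1: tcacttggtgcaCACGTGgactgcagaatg
Ltv1: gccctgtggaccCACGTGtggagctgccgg
Pes1: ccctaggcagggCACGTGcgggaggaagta
Grwd1: aagggccggagtcgCACGTGtgaaaccgga
Nop2: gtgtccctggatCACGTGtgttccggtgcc

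The stretches lie at chr11:72441347-72441376 (+) for Mybbp1a, chr17:71616220-71616249 (+) for Wdr43 and chr8:106893643-106893672 (+) for Utp4. Those of Utp20, Tsr1 and Ltv1 lie at chr10:88826765-88826794 (-), chr11:74898092-74898121 (+) and chr10:13193092-13193121 (-). Those of Pes1, Grwd1 and Nop2 lie at chr11:3963965-3963994 (+), chr7:45830740-45830769 (-) and chr6:125131811-125131840 (+). Counted from 1 at the RefSeq start, the motif began at base 3 in Pes1, 16 in Utp4, 18 in Wdr43, 25 in Tsr1, 29 in Ltv1, 35 in Grwd1, 38 in Utp20 and 41 in Mybbp1a, and in Nop2 it began 60 bases before the start. In GENCODE M21 the motif fell in a UTR of at least 1 coding transcript in 7 of the 9 genes, in coding sequence in Grwd1 and upstream of the annotated transcripts in Nop2. With EMT6 medium, the comparison with the largest changes below, the median log2 change was -2.22 in the 9 genes with CACGTG and -2.17 in the 21 genes without it in labelled Cysltr1-/- cultures, and -1.72 and -1.41 in WT cultures. These medians are a description and were not tested.

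Library depth ran between 9.58 M and 32.0 M gene counts (M, counts times 10 to the power of 6). The EMT6 medium libraries stood apart. Reads outside annotated features averaged 50.2% of the total in labelled Cysltr1-/- and 36.2% in WT EMT6 medium libraries, and between 14.2% and 19.5% in each of the other groups. Mean depth was 10.9 M and 15.9 M in the EMT6 medium groups, and between 23.1 M and 26.7 M in the others. If such reads also fell evenly on exons (stray reads below), they would make up a median of 13.5% of a listed gene's counts in labelled Cysltr1-/- and 6.31% in WT EMT6 medium libraries, and as much as 52.1% for Polr1a and 47.7% for Grwd1 in the labelled Cysltr1-/- group. Cysltr1 itself did not follow its label, since its level was 75.2 to 78.6 CPM in labelled Cysltr1-/- and 57.6 to 62.7 CPM in WT libraries under GM-CSF. Whole-gene counts cannot show a deleted part of a gene, so the libraries are called by their label throughout. Myeloid identity markers (8 genes, Ptprc, Itgam, Spi1 and Lyz2 among them) were detected in every group and summed to between 2518 and 9295 CPM in the group means, and late neutrophil markers (8 genes) to between 1584 and 11360 CPM. In these mixed cultures, fewer cells of a type and less RNA per cell cannot be told apart.

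The summed level of the 36 genes followed both culture and genotype. It was 3496 ± 57.1 CPM in labelled Cysltr1-/- and 2957 ± 64.9 CPM in WT libraries with IL-6 (mean ± SD, n = 3 in each group here and below). With EMT6 medium it was 966.1 ± 29.5 CPM in labelled Cysltr1-/- and 1074 ± 21.7 CPM in WT libraries, and under GM-CSF alone it was 4039 ± 49.4 and 2844 ± 23.8 CPM in labelled Cysltr1-/- and WT libraries. CPM are counts scaled to a common library total and then by TMM, a method that aligns libraries on an average over genes without the extremes. After it, the median log2 change with EMT6 medium was 0.83 in labelled Cysltr1-/- and 0.49 in WT cultures over the 28334 genes tested. Among genes with a mean of at least 5 CPM it was -0.62 and -0.57. The size of the changes with EMT6 medium thus rests on the scaling. Scaled by library size alone, the EMT6 medium sums were 1354 ± 40.8 in labelled Cysltr1-/- and 1275 ± 16.9 CPM in WT libraries, so the order of the genotypes in that culture depends on the scaling. The other orders did not.

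**Figure D1:**
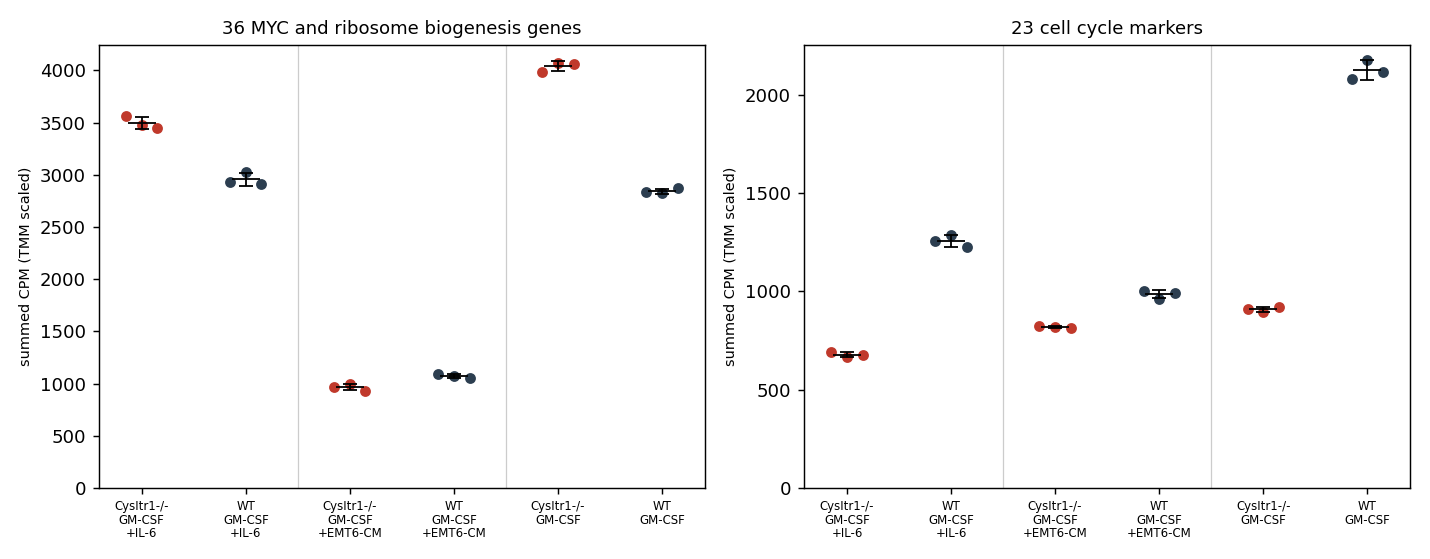
Summed CPM (TMM scaled, linear axis from 0) of the 36 MYC and ribosome biogenesis genes (left) and of 23 cell cycle markers (right) in each library, with group mean and SD as bars (n = 3). The 36 genes summed highest in labelled Cysltr1-/- libraries under GM-CSF (4039 CPM) and lowest with EMT6 medium (966.1 and 1074 CPM), while cell cycle markers summed highest in WT libraries under GM-CSF (2123 CPM).

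Levels differed widely among the 36 genes. Per kilobase of exon, in WT libraries under GM-CSF, the mean level was 173 CPM per kb for Npm1 (nucleophosmin, an abundant nucleolar chaperone), 68.5 for Myc and 58.1 for Ncl (nucleolin, a nucleolar RNA-binding protein). The median gene had 11.3 CPM per kb, and the lowest were Wdr12 with 1.72, Polr1b with 3.10 and Utp20 with 3.18 CPM per kb. Npm1 has processed copies elsewhere in the genome, so its counts may be incomplete. The median coefficient of variation among the 3 libraries of a group ran from 2.53% (labelled Cysltr1-/-, GM-CSF) to 7.35% (labelled Cysltr1-/-, EMT6 medium). The highest in any group was 43.9%, for Grwd1 in labelled Cysltr1-/- EMT6 medium libraries.

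EMT6 conditioned medium was compared with GM-CSF alone within each genotype. With EMT6 medium, all 36 genes fell in labelled Cysltr1-/- cultures, by a median of 2.23 on the log2 scale, and 35 of 36 fell in WT cultures, where the median log2 change was -1.55. No library with EMT6 medium overlapped a GM-CSF library for any of the 36 genes in either genotype, though such gaps were not counted over all genes. These calls come from edgeR's quasi-likelihood test with Benjamini-Hochberg adjustment over 28334 genes at an adjusted p under 0.05, as do all calls here. The same test called 32.9% of all genes lower and 54.3% higher in labelled Cysltr1-/- cultures, and 34.5% lower and 46.8% higher in WT cultures. Among the 11275 genes with a mean of at least 5 CPM, which the 36 genes resemble more in level, 69.3% were lower in labelled Cysltr1-/- (median log2 change -0.62) and 71.9% in WT cultures (median -0.57). With this scaling, falls were thus the rule among well expressed genes, and the median of the 36 genes lay well below that of those genes. That background depends on the scaling. When the 14441 genes with a mean of at least 5 CPM in 1 group were scaled and fitted alone, rises and falls were nearly balanced. In that fit 6379 were higher and 6524 lower in labelled Cysltr1-/- cultures, and 6338 higher and 6056 lower in WT cultures.

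Myc had 31.3, 36.3 and 40.0 CPM in labelled Cysltr1-/- libraries with EMT6 medium, against 221, 217 and 215 CPM under GM-CSF. In WT libraries it had 35.3, 37.7 and 34.8 CPM with EMT6 medium, against 192, 192 and 174 CPM under GM-CSF. Every EMT6 medium library was thus far below every GM-CSF library. Myc fell 6.10-fold in labelled Cysltr1-/- (log2 change -2.61 ± 0.06 SE, edgeR adjusted p = 8.8e-34) and 5.17-fold in WT cultures (-2.37 ± 0.06, adjusted p = 1.47e-32).

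The snoRNP genes encode Fbl (fibrillarin, the RNA methyltransferase of box C/D snoRNPs), its partners Nop56 and Nop58, Dkc1 (dyskerin, the pseudouridine synthase of box H/ACA snoRNPs) and the chaperone Nolc1. All 5 fell in both genotypes, with median log2 changes of -2.59 in labelled Cysltr1-/- and -1.75 in WT cultures. Dkc1 had 8.93, 7.77 and 6.76 CPM with EMT6 medium, against 56.9, 57.8 and 56.6 CPM under GM-CSF, in labelled Cysltr1-/- libraries. Its WT values were 7.55, 8.12 and 6.15 CPM with EMT6 medium, against 33.8, 34.4 and 39.1 CPM under GM-CSF. Dkc1 levels with EMT6 medium overlapped between the genotypes, and it fell by 2.85 and 2.31 on the log2 scale in labelled Cysltr1-/- and WT cultures. Nop58 had 28.3, 25.6 and 26.3 CPM with EMT6 medium, against 123, 124 and 132 CPM under GM-CSF, in labelled Cysltr1-/- libraries. Its WT values were 21.3, 20.1 and 20.5 CPM with EMT6 medium, against 61.5, 56.6 and 60.4 CPM under GM-CSF. Nop58 was thus far lower with EMT6 medium in both genotypes, by 2.23 and 1.53 on the log2 scale. Nop56, Nolc1 and Fbl fell by 2.86, 2.59 and 2.26 in labelled Cysltr1-/- and by 1.84, 1.57 and 1.75 in WT cultures.

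Among nucleolar scaffolds and regulators, Mybbp1a (a nucleolar MYB-binding protein that takes part in rRNA synthesis) had the largest fall of the 36 genes in both genotypes, nearly equalled in labelled Cysltr1-/- cultures by Grwd1, which fell more (14.9-fold, against 9.80-fold for Mybbp1a) once stray reads were subtracted. It had 21.3, 26.9 and 18.1 CPM with EMT6 medium, against 239, 228 and 226 CPM under GM-CSF, in labelled Cysltr1-/- libraries. In WT libraries the values were 25.1, 25.8 and 24.9 CPM with EMT6 medium, against 165, 170 and 146 CPM under GM-CSF. The groups were far apart in each genotype, with falls of 10.5-fold in labelled Cysltr1-/- (log2 change -3.39 ± 0.08) and 6.35-fold in WT cultures (-2.67 ± 0.07). Ncl, the most abundant of the 36 by CPM, had 232, 217 and 204 CPM with EMT6 medium, against 799, 852 and 851 CPM under GM-CSF, in labelled Cysltr1-/- libraries. Its WT values were 233, 221 and 227 CPM with EMT6 medium, against 575, 588 and 614 CPM under GM-CSF. The genotypes overlapped with EMT6 medium and did not under GM-CSF. The Ncl difference between genotypes with EMT6 medium (-0.06, edgeR adjusted p = 0.304) was called lower in labelled Cysltr1-/- in 7 alternatives, such as DESeq2 (-0.17, adjusted p = 0.00353), and higher with library size scaling (0.18, adjusted p = 0.00115). Gnl3 (nucleostemin, a nucleolar GTPase of stem and cancer cells) had among the smallest falls, -1.33 ± 0.05 in labelled Cysltr1-/- and -0.27 ± 0.05 in WT cultures on the log2 scale. With scaling by library size alone its WT change was 0.23, a rise, and with stray reads subtracted it lost its call (-0.04, adjusted p = 0.433). Ddx21 fell by 2.26 and 1.07 and Npm1 by 1.55 and 1.04 in labelled Cysltr1-/- and WT cultures.

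**Figure D2:**
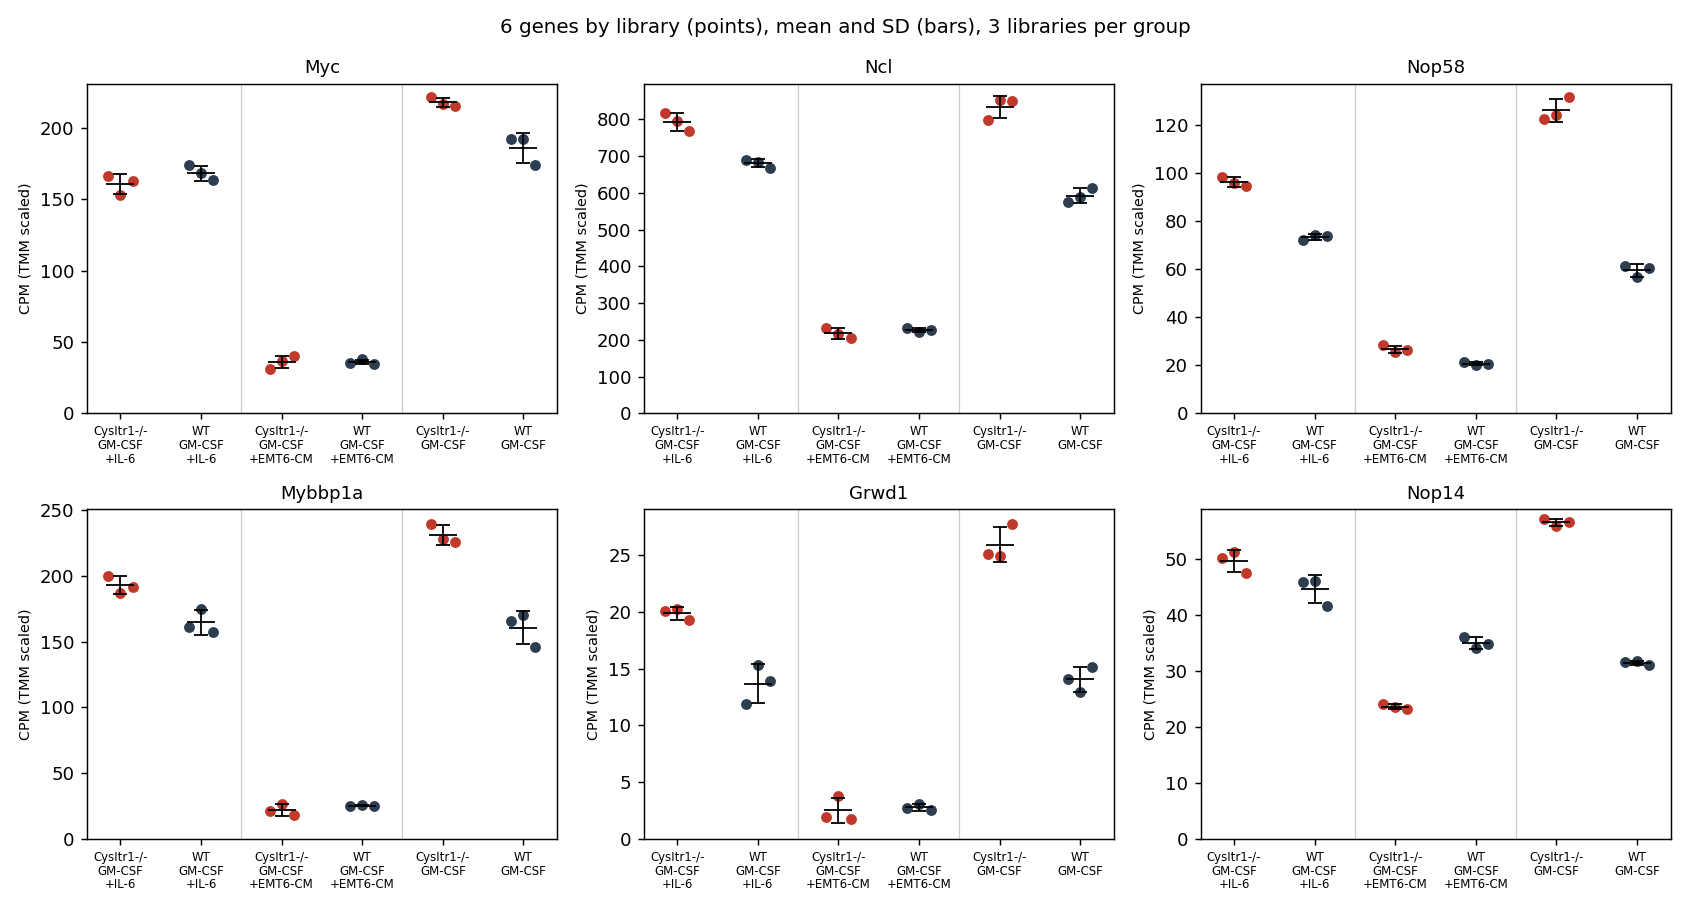
CPM (TMM scaled, linear axes from 0) of Myc, Ncl, Nop58, Mybbp1a, Grwd1 and Nop14 in each of the 18 libraries (points), with group mean and SD as bars (n = 3). EMT6 medium libraries are lowest in all panels except Nop14 in WT, which had 34.0 to 36.1 CPM with EMT6 medium and 31.1 to 31.7 CPM under GM-CSF.

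The largest subunits of RNA polymerase I fell as well. Polr1a had 11.3, 12.6 and 12.3 CPM with EMT6 medium, against 52.2, 53.5 and 53.4 CPM under GM-CSF, in labelled Cysltr1-/- libraries. Its WT libraries had 15.8, 13.6 and 14.2 CPM with EMT6 medium, against 41.1, 41.2 and 34.7 CPM under GM-CSF. Both genotypes showed a gap between the cultures, with log2 changes of -2.15 and -1.41 for Polr1a in labelled Cysltr1-/- and WT cultures. Stray reads were an estimated 52.1% and 24.2% of its EMT6 medium counts, and with them subtracted the changes were -2.86 and -1.49 and their difference between the genotypes was -1.36 instead of -0.73. Polr1b changed by -1.72 and -1.61 in the same order.

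Of the 6 genes of the small subunit processome, which carries out early cleavage of the precursor RNA, all 6 fell in labelled Cysltr1-/- and 5 in WT cultures. Wdr43 (a WD-repeat subunit that binds the precursor early) had 21.4, 21.8 and 22.2 CPM with EMT6 medium, against 110, 113 and 109 CPM under GM-CSF, in labelled Cysltr1-/- libraries. The WT values were 25.7, 24.0 and 22.5 CPM with EMT6 medium, against 57.7, 55.3 and 55.9 CPM under GM-CSF. With EMT6 medium the WT libraries were slightly above the labelled Cysltr1-/- libraries, the opposite of GM-CSF. That small difference missed the threshold (log2 difference -0.14, edgeR adjusted p = 0.0771) but passed with DESeq2 (-0.25, adjusted p = 0.00473) and in 8 other alternatives. Nop14 was the exception. It had 24.1, 23.6 and 23.2 CPM with EMT6 medium, against 57.0, 55.8 and 56.6 CPM under GM-CSF, in labelled Cysltr1-/- libraries. Its WT libraries ran the other way, with 36.1, 34.0 and 34.8 CPM with EMT6 medium, against 31.6, 31.7 and 31.1 CPM under GM-CSF. Nop14 fell by 1.25 in labelled Cysltr1-/- and rose by 0.15 ± 0.06 in WT cultures (log2, adjusted p = 0.017). That WT rise lost its call with DESeq2 size factors (0.02, adjusted p = 0.812) and without any 1 of the 3 WT GM-CSF libraries (0.02 to 0.04), and the log2 change was -0.006 without WT EMT6 medium replicate 1. With stray reads subtracted the WT rise was larger (0.40, edgeR adjusted p = 2.37e-07). Utp4 also fell little in WT cultures (-0.48 ± 0.06), and with library size scaling its WT change was 0.01. Utp20, Noc4l and Rrp9 fell by 2.13, 2.33 and 2.17 in labelled Cysltr1-/- and by 1.72, 1.41 and 1.31 in WT cultures.

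The 5 late small subunit factors fell in both genotypes, with median log2 changes of -2.15 in labelled Cysltr1-/- and -1.63 in WT cultures. Nob1, the endonuclease that makes the final 3′ cut of 18S rRNA, had 17.2, 20.4 and 18.2 CPM with EMT6 medium, against 55.4, 53.3 and 56.5 CPM under GM-CSF, in labelled Cysltr1-/- libraries. In WT libraries it had 18.8, 21.1 and 21.8 CPM with EMT6 medium, against 48.6, 48.1 and 48.2 CPM under GM-CSF. The 2 cultures were well apart in both genotypes. Bysl (bystin, needed for small subunit maturation) had 8.05, 7.63 and 6.97 CPM with EMT6 medium, against 47.2, 45.0 and 46.9 CPM under GM-CSF, in labelled Cysltr1-/- libraries. Its WT values were 8.87, 8.61 and 8.48 CPM with EMT6 medium, against 29.0, 29.7 and 29.4 CPM under GM-CSF. It fell most in this group, by 2.61 in labelled Cysltr1-/- and 1.76 in WT cultures on the log2 scale. Ltv1, which leaves the subunit late in the cytoplasm, fell by 2.22 and 1.63, Tsr1 (a GTPase-like factor) by 2.15 and 1.72 and Rrp12 by 1.66 and 1.28. Bysl shares 9.37% of its exon bases with Ccnd3, and Tsr1 shares 32.3% with Srr, on opposite strands. The library kit is not stated to keep strand, so counts of these genes are uncertain, as are those of Noc2l, which shares 20.9% with Samd11.

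All 12 large subunit factors fell in both genotypes, with median log2 changes of -2.29 in labelled Cysltr1-/- and -1.68 in WT cultures. Noc2l, which accompanies early large subunit precursors, had 29.3, 30.6 and 25.5 CPM with EMT6 medium, against 133, 141 and 128 CPM under GM-CSF, in labelled Cysltr1-/- libraries. WT libraries held 35.1, 31.4 and 33.2 CPM with EMT6 medium, against 103, 100.1 and 95.9 CPM under GM-CSF. The cultures did not overlap in either genotype. Grwd1, a WD-repeat protein of large subunit assembly, had 1.97, 3.81 and 1.81 CPM with EMT6 medium, against 25.1, 24.9 and 27.7 CPM under GM-CSF, in labelled Cysltr1-/- libraries. In WT libraries it had 2.74, 3.11 and 2.54 CPM with EMT6 medium, against 14.1, 13.0 and 15.2 CPM under GM-CSF. Grwd1 fell 10.4-fold in labelled Cysltr1-/- and 5.09-fold in WT cultures, and the estimated share of stray reads in its EMT6 medium counts (47.7% and 21.7%) was among the highest of the 36 genes. With stray reads subtracted it fell 14.9-fold and 5.33-fold. Rrs1 (a 5S RNP recruitment factor) fell by 3.30 and 2.27 on the log2 scale, and Wdr12 (the partner of Pes1 and Bop1 in the PeBoW complex) had the smallest fall in labelled Cysltr1-/- cultures, 0.92, and fell by 0.69 in WT cultures. Stray reads were an estimated 40.3% of the Wdr12 counts in labelled Cysltr1-/- EMT6 medium libraries, and with them subtracted it fell by 1.27, more than Nop14 (1.03), Gnl3 (1.13) and Nip7 (1.21). Its partners Pes1 and Bop1 fell by 2.19 and 2.76 in labelled Cysltr1-/- and by 1.77 and 2.22 in WT cultures. Nop2, a methyltransferase of large subunit RNA, fell by 2.51 and 1.81, and Rrp1b by 2.59 and 2.27. The other large subunit factors (Wdr74, Nop16, Nip7 and Noc3l) fell by 1.39 to 2.34 in labelled Cysltr1-/- and by 0.87 to 1.53 in WT cultures.

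Markers of other processes also moved with EMT6 medium. Of 23 cell cycle markers, 12 fell and 8 rose in labelled Cysltr1-/- cultures, with sums of 817.9 CPM with EMT6 medium and 908.2 CPM under GM-CSF, and all 23 fell in WT cultures, with sums of 985 and 2123 CPM. All 8 myeloid identity markers fell in both genotypes. Of 6 neutrophil precursor markers, 4 fell in labelled Cysltr1-/- (sums of 136.6 CPM with EMT6 medium and 359.2 CPM under GM-CSF) and 6 in WT cultures (sums of 214.8 and 1564 CPM, median log2 change -2.65). Of 8 late neutrophil markers, 7 and 8 fell (medians -1.79 and -2.57), and of 7 macrophage markers 5 and 6 fell (medians -0.74 and -2.31). The macrophage sums changed less, from 1221 CPM under GM-CSF to 902.4 CPM in labelled Cysltr1-/- and from 1577 to 1467 CPM in WT cultures. Lymphoid markers ran the other way, with 6 and 7 of 8 higher. Their sums went from 179.3 to 254.9 CPM in labelled Cysltr1-/- and from 237.6 to 444.7 CPM in WT cultures. Of 7 progenitor markers, 4 rose and 3 fell in each genotype, while their sums fell from 320.6 to 200.3 CPM in labelled Cysltr1-/- and from 378.7 to 170.7 CPM in WT cultures. Stray reads were not subtracted from these marker values. The part of these markers in the fall of the 36 genes was not tested. After subtraction of the estimated stray reads, the same test called 36 genes lower in labelled Cysltr1-/- and 34 lower in WT cultures. With library size scaling, which moved the median of all genes by 0.61 and 0.49 on the log2 scale, it called 36 lower in labelled Cysltr1-/-, and 32 lower and 2 higher in WT cultures.

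**Figure D3:**
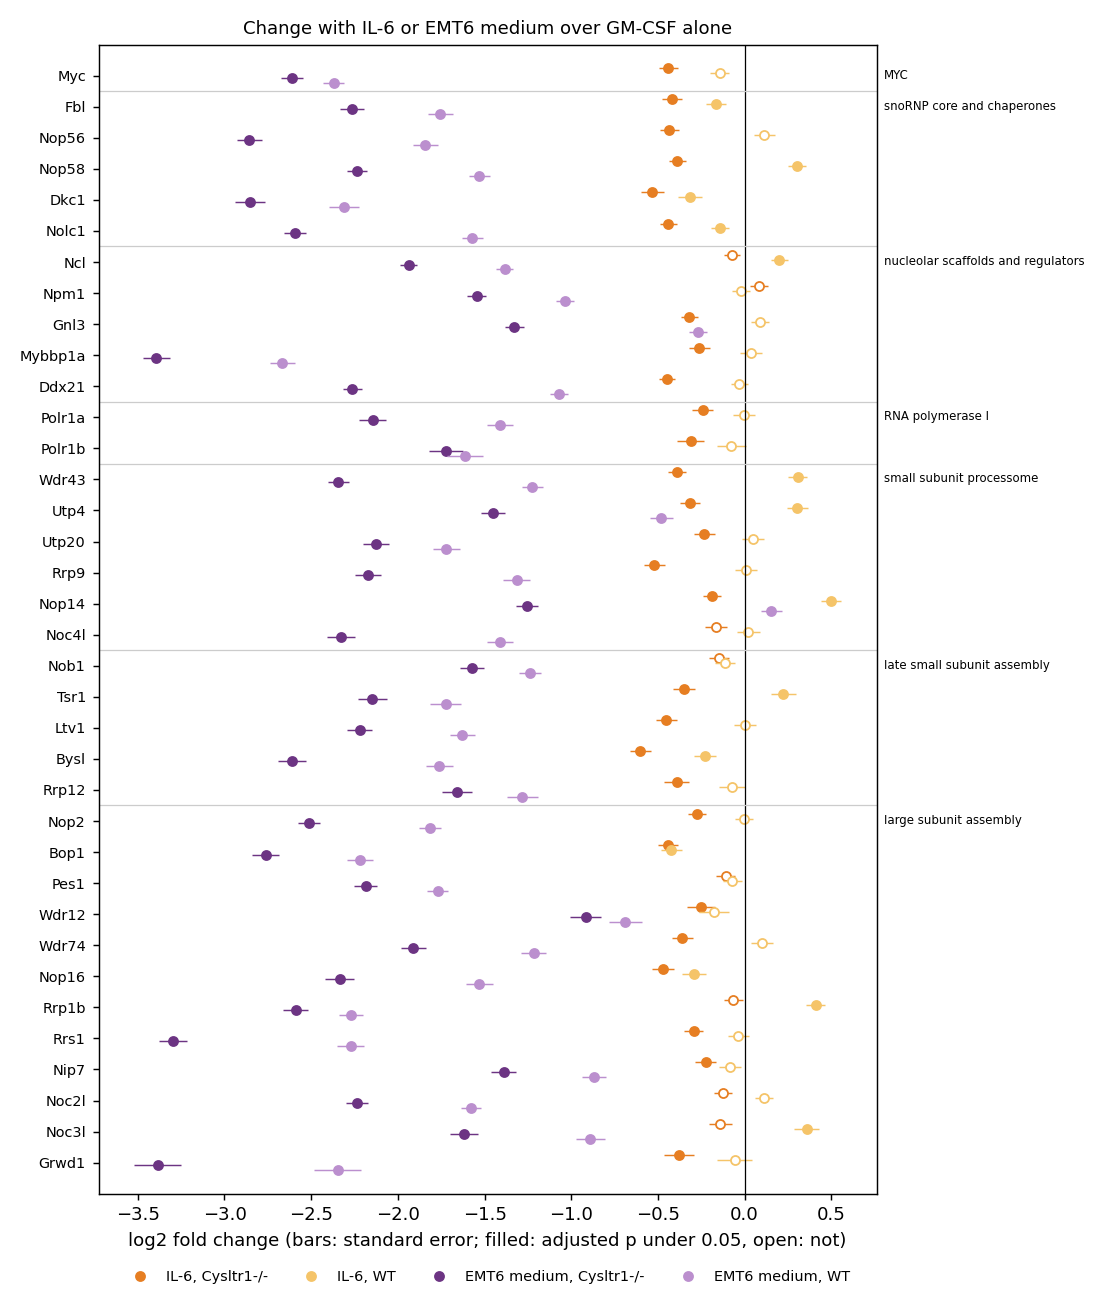
Log2 fold change (x axis) of each of the 36 genes with IL-6 or EMT6 medium over GM-CSF alone in labelled Cysltr1-/- (darker colours) and WT (lighter colours) cultures, grouped by role. Bars are standard errors of the edgeR fit, filled points passed the adjusted p threshold of 0.05 and open points did not. EMT6 medium changes reach -3.39 and lie further left in labelled Cysltr1-/- than in WT for all 36 genes, while IL-6 changes stay between -0.60 and 0.50.

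IL-6 gave much smaller changes, and these differed by genotype. In labelled Cysltr1-/- cultures 28 of the 36 genes fell with IL-6, none rose, and the median log2 change was -0.32, against 8.78% lower and 5.55% higher among all genes tested and 20.2% lower among genes with at least 5 CPM. The gene with the most positive change was Npm1 (0.08, adjusted p = 0.355). In WT cultures 8 genes rose, 6 fell and 22 did not pass the test, with a median log2 change of -0.00. The background there was 10.4% higher and 11.3% lower among all genes tested, or 23.1% and 23.7% among genes with at least 5 CPM, so the WT counts were not above those of other well expressed genes. None of these changes reached 2-fold. With no filter on low counts, 3 genes fell in WT cultures.

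Myc had 166, 153 and 163 CPM with IL-6, against 221, 217 and 215 CPM under GM-CSF, in labelled Cysltr1-/- libraries, and the groups did not overlap. It fell 1.36-fold there (log2 change -0.44 ± 0.05, edgeR adjusted p = 2.7e-08). The WT libraries had 174, 168 and 163 CPM with IL-6, against 192, 192 and 174 CPM under GM-CSF. These ranges nearly touched, and the change of -0.14 ± 0.05 missed the threshold (adjusted p = 0.0552). It passed with library size scaling (-0.15, adjusted p = 0.0285), with at least 5 CPM required in 1 group (-0.13, adjusted p = 0.0362) and without WT GM-CSF replicate 3 (-0.20, adjusted p = 0.00751).

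The genes that fell most with IL-6 in labelled Cysltr1-/- cultures were Bysl (-0.60 ± 0.06), Dkc1 (-0.53 ± 0.06) and Rrp9 (a U3 snoRNP protein, -0.52 ± 0.06). Bysl had 31.4, 27.5 and 32.6 CPM with IL-6, against 47.2, 45.0 and 46.9 CPM under GM-CSF, in labelled Cysltr1-/- libraries. Its WT values were 24.7, 25.9 and 24.6 CPM with IL-6, against 29.0, 29.7 and 29.4 CPM under GM-CSF. IL-6 libraries were thus below GM-CSF libraries in both genotypes. All 5 snoRNP genes fell in labelled Cysltr1-/- cultures, by 0.39 to 0.53 on the log2 scale. With IL-6, 6 of the 36 genes fell in both genotypes, and the share of all genes that did so was not counted.

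The rises in WT cultures were led by Nop14 (0.50 ± 0.06, adjusted p = 1.72e-09), Rrp1b (a nucleolar protein that binds phosphatase PP1, 0.41 ± 0.06) and Noc3l (0.36 ± 0.07). Nop14 had 45.9, 46.0 and 41.7 CPM with IL-6, against 31.6, 31.7 and 31.1 CPM under GM-CSF, in WT libraries, with every IL-6 library above every GM-CSF library. In labelled Cysltr1-/- libraries it had 50.2, 51.2 and 47.5 CPM with IL-6, against 57.0, 55.8 and 56.6 CPM under GM-CSF, a fall of 0.19 ± 0.05 on the log2 scale (adjusted p = 0.0119) whose call was lost without labelled Cysltr1-/- GM-CSF replicate 1 (adjusted p = 0.069) or 3 (adjusted p = 0.0507) or without IL-6 replicate 3 (adjusted p = 0.113). Nop14 was among 5 genes that rose with IL-6 in WT and fell with it in labelled Cysltr1-/- cultures, a pattern not counted over all genes. Of the small subunit processome, 3 of 6 genes (Wdr43, Utp4 and Nop14) rose in WT cultures and 5 of 6 fell in labelled Cysltr1-/- cultures. The largest falls in WT cultures were those of Bop1 (-0.42 ± 0.06), Dkc1 (-0.31 ± 0.07) and Nop16 (-0.29 ± 0.07). Nop16 had 35.6, 40.1 and 36.2 CPM with IL-6, against 46.2, 39.5 and 49.9 CPM under GM-CSF, in WT libraries, and these groups overlapped.

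Cell cycle markers also fell with IL-6, 20 of 23 in labelled Cysltr1-/- cultures (sums of 678.4 CPM with IL-6 and 908.2 CPM under GM-CSF) and 22 of 23 in WT cultures (sums of 1254 and 2123 CPM). In WT cultures the 36 genes had no such common direction. Late neutrophil markers fell with IL-6 as well, 7 of 8 in each genotype (median log2 changes of -1.59 in labelled Cysltr1-/- and -1.06 in WT cultures), as did 4 and 6 of 6 neutrophil precursor markers. The part of these markers in the changes of the 36 genes was not tested.

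The genotypes differed most under GM-CSF alone. In labelled Cysltr1-/- cultures 35 of 36 genes were higher than in WT, none was lower, and the median log2 difference was 0.65 (1.57-fold). The same test called 10.1% of all genes higher and 17.2% lower, and 17.8% higher and 37.9% lower among genes with at least 5 CPM, whose median was -0.09. With this scaling, the 36 genes were thus higher where well expressed genes were lower more often than higher. That background turned with the scaling. Scaled and fitted alone, the 14441 genes with at least 5 CPM in 1 group gave 4358 higher and 3086 lower. Library sizes alone gave 4735 higher and 3260 lower among all genes tested. Only Pes1 of the PeBoW complex did not pass (0.04 ± 0.05, adjusted p = 0.648). Library ranges did not overlap for the other 35, and such gaps were not counted over all genes.

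Nop58, the core C/D snoRNP protein, showed the largest difference. It had 123, 124 and 132 CPM in labelled Cysltr1-/- libraries, against 61.5, 56.6 and 60.4 CPM in WT libraries under GM-CSF. Labelled Cysltr1-/- libraries were all about 2.12-fold higher (log2 difference 1.08 ± 0.05, edgeR adjusted p = 7.61e-22). Wdr43 followed with 0.98 ± 0.05 (adjusted p = 6.58e-20) and Rrp9 with 0.92 ± 0.06, and the RNA helicase Ddx21, which couples polymerase I transcription to rRNA processing, was higher by 0.81 ± 0.05 (adjusted p = 3.05e-18). Ddx21 had 207, 198 and 207 CPM in labelled Cysltr1-/- libraries, against 114, 119 and 116 CPM in WT libraries. Myc differed little by comparison, with 221, 217 and 215 CPM in labelled Cysltr1-/- libraries, against 192, 192 and 174 CPM in WT libraries, and no overlap. Its log2 difference of 0.23 ± 0.05 (adjusted p = 0.000826) was the third smallest, after Pes1 and Nob1 (0.19 ± 0.06). The call for Nob1 was lost without WT replicate 2 (0.16, adjusted p = 0.065), labelled Cysltr1-/- replicate 1 (0.17, adjusted p = 0.0552) or labelled Cysltr1-/- replicate 3 (0.15, adjusted p = 0.0968). By role, the median differences were 0.77 for the small subunit processome, 0.68 for snoRNP genes, 0.66 for late small subunit factors, 0.53 for nucleolar scaffolds, 0.51 for RNA polymerase I and 0.48 for large subunit factors.

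With IL-6 the same direction was seen at a smaller size. In labelled Cysltr1-/- cultures 32 of 36 genes were higher than in WT with IL-6 and 1 was lower, with a median log2 difference of 0.27, while 12.1% of all genes were higher and 18.4% lower, and 12.4% were higher and 41.8% lower among genes with at least 5 CPM. The largest differences were those of Rrs1 (0.57 ± 0.06, edgeR adjusted p = 7.77e-11), Grwd1 (0.54 ± 0.09) and Wdr12 (0.45 ± 0.08). Rrs1 had 56.4, 51.9 and 54.0 CPM in labelled Cysltr1-/- libraries, against 35.8, 37.4 and 36.2 CPM in WT libraries with IL-6, and the groups were well apart. Rrp1b was the gene that was lower, with 100.1, 97.3 and 95.5 CPM in labelled Cysltr1-/- libraries, against 114.6, 114.3 and 110.4 CPM in WT libraries (log2 difference -0.21 ± 0.06, adjusted p = 0.0026). Library size scaling ended that call (-0.07, adjusted p = 0.328). Myc and Pes1 did not pass (-0.07, adjusted p = 0.376, and 0.00, adjusted p = 0.969), nor did Utp4 (0.07, adjusted p = 0.381).

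**Figure D4:**
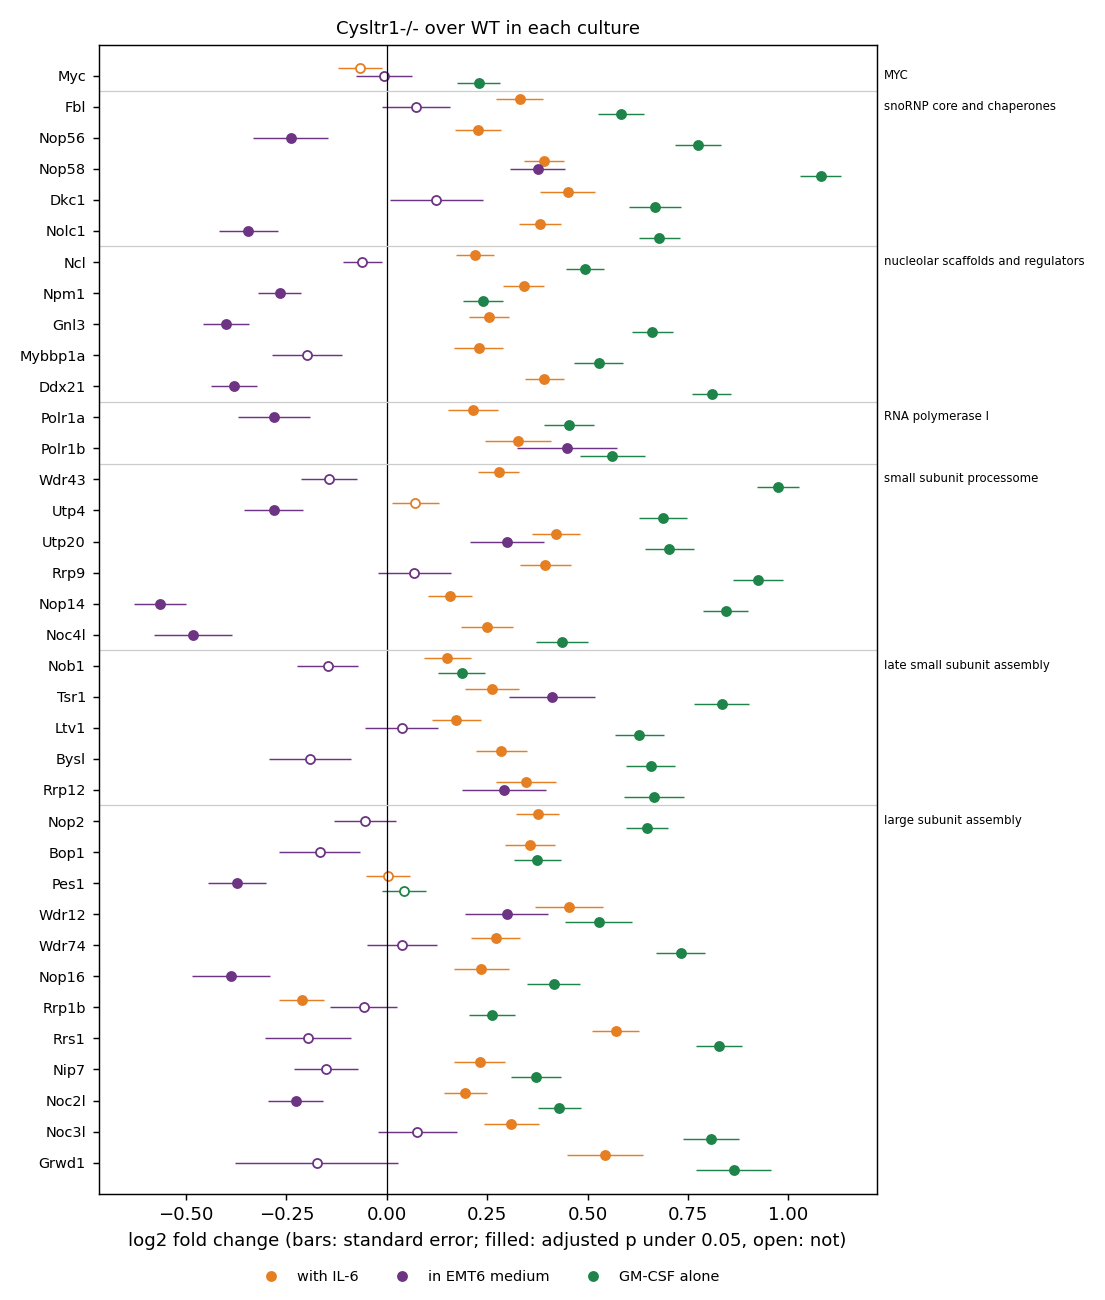
Log2 fold change (x axis) of labelled Cysltr1-/- over WT for each of the 36 genes with IL-6, in EMT6 medium and under GM-CSF alone, grouped by role. Bars are standard errors, filled points passed the adjusted p threshold of 0.05 and open points did not. Differences under GM-CSF (median 0.65) lie right of those with IL-6 (median 0.27) for 35 of 36 genes, and those in EMT6 medium scatter around 0 (median -0.15).

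With EMT6 medium the genotypes no longer differed in a common direction. Under that medium 6 of 36 genes were higher and 12 lower in labelled Cysltr1-/- than in WT cultures, and 18 did not pass, with a median log2 difference of -0.15. Of all genes tested 32.3% were higher and 19.8% lower, and of those with at least 5 CPM 16.3% were higher and 45.8% lower with a median of -0.15. With this scaling the median of the 36 genes thus did not stand out from those genes. Scaled and fitted alone, the 14441 genes with at least 5 CPM in 1 group gave 4955 higher and 4614 lower, so this background depends on the scaling too. The strongest decreases were those of Nop14 (-0.57 ± 0.06, edgeR adjusted p = 1.23e-09), Noc4l (its partner in the processome, -0.48 ± 0.10) and Gnl3 (-0.40 ± 0.06, adjusted p = 2.61e-07). Gnl3 had 40.1, 35.9 and 35.0 CPM in labelled Cysltr1-/- libraries, against 49.1, 49.0 and 48.8 CPM in WT libraries, without overlap. Polr1b (0.45 ± 0.12), Tsr1 (0.41 ± 0.11) and Nop58 (0.38 ± 0.07) had the largest increases. Nop58 had 28.3, 25.6 and 26.3 CPM in labelled Cysltr1-/- libraries, against 21.3, 20.1 and 20.5 CPM in WT libraries, again without overlap. Myc was at 31.3, 36.3 and 40.0 CPM in labelled Cysltr1-/- and 35.3, 37.7 and 34.8 CPM in WT libraries, and these overlapped (log2 difference -0.01 ± 0.07, adjusted p = 0.932).

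These EMT6 medium counts rest on the scaling and on single libraries. With library size scaling, which moved the median of all genes by 0.24, 16 genes were higher and 4 lower. With DESeq2, 3 were higher and 20 lower. Without WT EMT6 medium replicate 1 the count higher was 2, and without labelled Cysltr1-/- EMT6 medium replicate 1, 2 or 3 it was 3, 3 and 2, while without labelled Cysltr1-/- replicate 2 the count lower was 21. After subtraction of the stray reads the count higher was 3. The call for Polr1b was lost without WT replicate 1 (0.21, adjusted p = 0.213) or labelled Cysltr1-/- replicate 3 (0.27, adjusted p = 0.107) of this medium, and that for Tsr1 without labelled Cysltr1-/- replicate 1 (0.26, adjusted p = 0.095).

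Cell cycle markers ran against the 36 genes in the genotype comparison under GM-CSF and with IL-6, but not with EMT6 medium, where 14 were lower and 1 was higher in labelled Cysltr1-/- than in WT cultures (median -0.25). Under GM-CSF 22 of 23 were lower and 1 was higher in labelled Cysltr1-/- than in WT cultures, with a median log2 difference of -1.34, and with IL-6 22 were lower and 1 was higher as well, with sums of 678.4 CPM in labelled Cysltr1-/- and 1254 CPM in WT libraries. All 6 neutrophil precursor markers (Mpo and Elane among them) and all 8 late neutrophil markers were lower in labelled Cysltr1-/- than in WT cultures both under GM-CSF and with IL-6, while progenitor markers summed to 320.6 and 345.5 CPM in labelled Cysltr1-/- and to 378.7 and 313.4 CPM in WT libraries under GM-CSF and with IL-6. The part of cell composition in the genotype differences of the 36 genes was not tested.

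The difference between the genotypes in their change was tested directly as an interaction, which uses the same GM-CSF libraries for both media. Each interaction equals the genotype difference with that medium minus the one under GM-CSF, where 35 of 36 genes were already higher in labelled Cysltr1-/- cultures. It is thus not independent of the genotype comparisons above. The IL-6 change was lower in labelled Cysltr1-/- than in WT cultures for 23 of 36 genes and higher for none, with a median difference of -0.30 on the log2 scale, against 4.46% lower and 2.92% higher among all genes tested and 10.8% and 6.25% among genes with at least 5 CPM. Wdr43 (-0.70 ± 0.07, edgeR adjusted p = 1.67e-09), Nop58 (-0.69 ± 0.07, adjusted p = 1.11e-09) and Nop14 (-0.69 ± 0.08, adjusted p = 1.29e-08) had the strongest differences. Wdr43 had 87.1, 82.0 and 84.3 CPM in labelled Cysltr1-/- and 73.0, 70.2 and 65.7 CPM in WT libraries with IL-6. Set beside its GM-CSF values above, IL-6 libraries were lower than GM-CSF libraries in labelled Cysltr1-/- and higher in WT cultures. Myc passed with -0.30 ± 0.08 (adjusted p = 0.00967). Npm1 (0.10, adjusted p = 0.504), Bop1 (-0.02, adjusted p = 0.949) and Nob1 (-0.04, adjusted p = 0.884) had the highest values, and none of them passed. Leaving out 1 library at a time gave 16 to 22 genes lower, fewer than 23 in every case. Noc2l lost its call in all 12 of these fits, Rrs1 and Fbl in 10, Utp20 in 9, Mybbp1a in 7 and Nop2 in 5. Without labelled Cysltr1-/- IL-6 replicate 2 the call for Myc was lost (-0.26, adjusted p = 0.0565).

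The EMT6 medium change was lower in labelled Cysltr1-/- than in WT cultures for 34 of 36 genes and higher for none, with a median difference of -0.70 on the log2 scale. Among all genes tested 12.3% were lower and 13.2% higher, and 28.9% and 21.1% among genes with at least 5 CPM. The strongest differences were those of Nop14 (-1.41 ± 0.09, edgeR adjusted p = 1.82e-17), Ddx21 (-1.19 ± 0.07, adjusted p = 6.36e-17) and Wdr43 (-1.12 ± 0.09, adjusted p = 3.98e-14), followed by Gnl3 (-1.06 ± 0.08, adjusted p = 5.32e-15). Ddx21 had 43.7, 43.7 and 40.0 CPM in labelled Cysltr1-/- and 57.5, 54.3 and 54.0 CPM in WT libraries with EMT6 medium. Its order of the genotypes was thus opposite to that under GM-CSF. Polr1b (-0.11 ± 0.15, adjusted p = 0.646) and Wdr12 (-0.23 ± 0.13, adjusted p = 0.221) did not pass, and Myc was close to the threshold (-0.24 ± 0.09, adjusted p = 0.042). With library size scaling, 29 of 36 genes passed and Myc did not (-0.12, adjusted p = 0.304). The call for Myc was also lost without WT EMT6 medium replicate 2 (-0.22, adjusted p = 0.0843).

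The wider ribosome biogenesis machinery was counted in the same comparisons. Of 162 tested genes from 6 lists outside the 36 (RNA polymerase I machinery, processome, late small subunit, large subunit, snoRNP and rRNA nuclease genes), 151 fell and 4 rose with EMT6 medium in labelled Cysltr1-/- cultures (median log2 change -1.09), and 145 fell and 6 rose in WT cultures (median -0.82), where 69.3% and 71.9% of genes with at least 5 CPM fell. With IL-6, 61 fell and none rose in labelled Cysltr1-/- cultures (median -0.15), against 20.2% lower among genes with at least 5 CPM. In WT cultures 42 fell and 23 rose with IL-6 (median -0.02), shares near or below the 23.7% lower and 23.1% higher of those genes. Under GM-CSF 90 were higher and 15 lower in labelled Cysltr1-/- than in WT cultures (median 0.21), and with IL-6 56 were higher and 14 lower (median 0.12), against 17.8% and 12.4% higher among genes with at least 5 CPM. With EMT6 medium 26 were higher and 45 lower in labelled Cysltr1-/- than in WT cultures (median -0.07). Among genes with at least 5 CPM 16.3% were higher and 45.8% lower there. Whether these genes differ from the 36 was not tested. By list, the number higher under GM-CSF ran from 37 of 52 large subunit factors to 5 of 18 genes of the RNA polymerase I machinery. Among single genes, Gar1 (an H/ACA snoRNP protein like dyskerin) fell by 3.07 and 2.39 with EMT6 medium in labelled Cysltr1-/- and WT cultures and was higher by 1.09 ± 0.08 in labelled Cysltr1-/- under GM-CSF. Rrp15 fell by 3.42 and 2.55 with EMT6 medium, and Nol6 by 2.79 and 2.17. Against the trend, Nop10 (an H/ACA snoRNP protein) and Nop53 (a late large subunit factor) were lower by 0.59 and 0.51 in labelled Cysltr1-/- than in WT cultures under GM-CSF. Of 14 genes of the 5S RNP and RNA polymerase III, all 14 fell with EMT6 medium in labelled Cysltr1-/- and 13 in WT cultures, but 4 were higher and 3 lower in labelled Cysltr1-/- under GM-CSF.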

How the data were processed

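Raw counts per gene of the 18 libraries were used as the authors deposited them. The submitters' processing notes name HISAT2 2.1.0, HTSeq 0.13.5, DESeq2 1.34.0 (its role is not stated) and mm10. Annotation, strand setting and filters are not given in the sources used here. The deposited normalized table was not used. Numbered entries, spike-ins and HTSeq summary lines stayed out of library sizes and tests. All 55536 gene IDs occurred in GENCODE M21, which gave symbols and exon lengths. Each library is a pool of 3 mice per the labels. Whether pools of a group were cultured separately is not stated, so p-values measure the spread between these libraries. No pair of libraries in a group agreed within sampling noise.

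The 28334 genes kept by filterByExpr were fitted with edgeR 4.0.16 in R 4.3.3 (TMM scaling, quasi-likelihood F test, all 18 libraries, 1 mean per group, Benjamini-Hochberg adjustment in each comparison), after the test was tried on simulated data. Of 50 changes planted at each size in genes of any level, it recovered 8 at 1.2-fold, 21 at 1.5-fold, 36 at 2-fold and 42 at 4-fold. It made 5 false calls. A gene that did not pass may thus still differ. A standard error is the log2 fold change divided by the square root of F.

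The 36 genes, the other gene lists and the rule for named genes were chosen with earlier results of these data known. Values by library are given for Myc and, per role, the most counted gene and the one with the largest mean change over the culture comparisons, and for some genes at the extremes. By rule the 3 largest and 3 smallest changes of each comparison are named, in genotype and interaction comparisons also the 3 smallest p, and list genes with the largest changes in WT cultures. Stray reads were estimated as each library's density of reads outside features times exon length. Alternatives were DESeq2 1.42.0, its size factors, library sizes alone, no filter, a mean of at least 5 CPM in 1 group, a replicate block, only the groups compared, stray reads subtracted and each library left out.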

Additional observations from a re-analysis of the deposited data

Results flagged for a closer look

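The change with IL-6 or EMT6 medium differed between the genotypes by the interaction test (edgeR, Benjamini-Hochberg adjusted p under 0.05) for the genes below, each value being the log2 change in labelled Cysltr1-/- minus that in WT cultures. No explanation was weighed. Each value also equals the genotype difference with that medium minus the one under GM-CSF alone, so it is not independent of those. Cell cycle markers moved the other way, with 16 of 23 higher and none lower in the interaction with IL-6 and 20 higher and none lower in that with EMT6 medium. Their part in the values below was not tested.

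The difference in the IL-6 change was -0.30 for Myc. Among snoRNP genes it was -0.69 for Nop58, -0.55 for Nop56, -0.30 for Nolc1 and -0.25 for Fbl. Among nucleolar scaffolds and regulators it was -0.42 for Ddx21, -0.41 for Gnl3, -0.30 for Mybbp1a and -0.27 for Ncl. In the small subunit processome it was -0.70 for Wdr43, -0.69 for Nop14, -0.62 for Utp4, -0.53 for Rrp9 and -0.28 for Utp20. Among late small subunit factors it was -0.57 for Tsr1, -0.46 for Ltv1 and -0.37 for Bysl. Among large subunit factors it was -0.50 for Noc3l, -0.47 for Rrp1b, -0.46 for Wdr74, -0.27 for Nop2, -0.26 for Rrs1 and -0.23 for Noc2l. Of the 12 fits that each left out 1 library, the call was lost in 12 for Noc2l, 10 for Rrs1, 10 for Fbl, 9 for Utp20, 7 for Mybbp1a, 5 for Nop2 and 1 for Myc. Library size scaling also ended it for Noc2l, Rrs1 and Fbl, and subtraction of stray reads for Mybbp1a.

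The difference in the EMT6 medium change was -0.24 for Myc. Among snoRNP genes it was -1.02 for Nolc1, -1.01 for Nop56, -0.71 for Nop58, -0.54 for Dkc1 and -0.51 for Fbl. Among nucleolar scaffolds and regulators it was -1.19 for Ddx21, -1.06 for Gnl3, -0.73 for Mybbp1a, -0.55 for Ncl and -0.51 for Npm1. Of RNA polymerase I it was -0.73 for Polr1a. In the small subunit processome it was -1.41 for Nop14, -1.12 for Wdr43, -0.97 for Utp4, -0.92 for Noc4l, -0.86 for Rrp9 and -0.40 for Utp20. Among late small subunit factors it was -0.85 for Bysl, -0.59 for Ltv1, -0.42 for Tsr1, -0.37 for Rrp12 and -0.33 for Nob1. Among large subunit factors it was -1.04 for Grwd1, -1.02 for Rrs1, -0.81 for Nop16, -0.73 for Noc3l, -0.70 for Nop2, -0.69 for Wdr74, -0.66 for Noc2l, -0.54 for Bop1, -0.52 for Nip7, -0.42 for Pes1 and -0.32 for Rrp1b. Leaving out 1 library ended the call in 1 of 12 fits for Myc and for Rrp12.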

How the results depend on the processing

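Counts of the 36 genes past the threshold stayed within 1.5 times the reported count under every alternative run for the falls with EMT6 medium (36 in labelled Cysltr1-/-, 32 to 35 in WT), the falls with IL-6 in labelled Cysltr1-/- cultures and the rises of labelled Cysltr1-/- over WT under GM-CSF and with IL-6. Other counts moved. With IL-6 in WT cultures 3 genes fell without the count filter, and in labelled Cysltr1-/- cultures 1 rose when only the groups compared were fitted. With EMT6 medium in WT cultures the count higher was 0 with DESeq2, with its size factors and without the filter, and 2 with library sizes alone and with a mean of at least 5 CPM. Labelled Cysltr1-/- over WT with IL-6 gave 0 genes lower with library sizes alone and with at least 5 CPM. In EMT6 medium, labelled Cysltr1-/- over WT gave 3 higher and 20 lower with DESeq2 and with its size factors, 16 higher and 4 lower with library sizes alone, 2 higher and 21 lower without the filter, and 3 higher with only the groups compared or stray reads subtracted.

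Direction turned with library sizes alone for Utp4 (0.013) and Gnl3 (0.23) with EMT6 medium in WT cultures, Gnl3 also with at least 5 CPM (0.13). In EMT6 medium, labelled Cysltr1-/- over WT turned to 0.23 for Myc, 0.18 for Ncl, 0.0014 for Nop56, 0.19 for Nop2, 0.18 for Rrp1b and 0.014 for Noc2l. Only genes called in the reported fit or in the alternative are listed. Turns of genes called in neither were not counted. Library sizes alone moved the median of all genes by 0.49 and DESeq2 size factors moved it by -0.14 with EMT6 medium in WT cultures. The filter at 5 CPM in 1 group moved the genes it kept by a median of 0.40 there. Beyond this scaling, the cause was not tested. The shares of genes with at least 5 CPM given as background come from the reported scaling, and some turn with it. Scaled and fitted alone, 14441 genes gave 4740 higher and 2946 lower in labelled Cysltr1-/- than in WT cultures with IL-6.

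Leaving out 1 library gave 0 to 1 genes higher with EMT6 medium in WT cultures (Nop14, log2 change -0.0062 to 0.16), and in EMT6 medium 2 to 6 higher and 11 to 21 lower in labelled Cysltr1-/- than in WT. Single genes kept their side of the threshold, with no turn of a called gene, in 2233 of 2376 such comparisons. A turn in direction of a gene called in neither fit was not counted as a change. Libraries with the same replicate number were only weakly correlated (median correlation 0.03, against -0.02 for different numbers). Of 18 libraries, 10 correlated best with their own number, a hint from the data only. These values cannot show whether pools were shared between cultures. The replicate block kept every count within 1.5 times, for example 5 genes lower with IL-6 in WT cultures. By the same rule for single genes it kept 322 of 324 values. Depth was lowest, and stray reads highest, in EMT6 medium libraries, so differences between genotypes there are the least certain.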

Other observations

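Of 19 genes of the MYC family, its MAX network and MYC turnover, 13 fell and 3 rose with EMT6 medium in labelled Cysltr1-/- cultures and 15 fell and 3 rose in WT cultures, where 69.3% and 71.9% of genes with at least 5 CPM fell. With IL-6, 5 fell and 2 rose in labelled Cysltr1-/- and 4 fell and 4 rose in WT cultures. Of genes with at least 5 CPM, 20.2% and 23.7% fell and 11.2% and 23.1% rose with IL-6. Against most of that list, Mxd1, a MAX partner that antagonises MYC, rose with EMT6 medium to 854.2 ± 38.7 CPM in labelled Cysltr1-/- cultures, against 204.7 ± 4.75 CPM under GM-CSF, and to 1077 ± 61.8 CPM in WT cultures, against 438 ± 23.5 CPM under GM-CSF (SD, n = 3 each). It was lower in labelled Cysltr1-/- than in WT cultures under GM-CSF, by 1.10 on the log2 scale (edgeR adjusted p = 2.94e-22). Mycn rose with IL-6 to 17.1 CPM in labelled Cysltr1-/- cultures, against 10.4 CPM under GM-CSF, and to 13.4 CPM in WT cultures, against 8.15 CPM, by 0.72 on the log2 scale in each genotype. Mycl, another MYC paralog, fell with IL-6 by 0.93 in labelled Cysltr1-/- and 1.66 in WT cultures.

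Of 35 known MYC targets outside the nucleolus, 32 fell and 2 rose with EMT6 medium in labelled Cysltr1-/- cultures, 31 fell and 3 rose in WT cultures, and 23 were higher and 5 lower in labelled Cysltr1-/- than in WT under GM-CSF. The shares among genes with at least 5 CPM were 69.3% and 71.9% lower with EMT6 medium, and 17.8% higher and 37.9% lower under GM-CSF. With IL-6, 24 of the 35 fell and 2 rose in labelled Cysltr1-/- cultures (20.2% lower among genes with at least 5 CPM), and 16 fell and 6 rose in WT cultures (23.7% lower). Slc7a5, a subunit of an amino acid transporter, averaged 604.3 ± 9.79 CPM in labelled Cysltr1-/- and 201.1 ± 14.9 CPM in WT cultures under GM-CSF. With IL-6 it averaged 534.9 ± 17.3 CPM in labelled Cysltr1-/- and 513 ± 13.7 CPM in WT cultures, where it rose by 1.35 on the log2 scale (edgeR adjusted p = 2.41e-20). The IL-6 change differed between the genotypes by -1.53 (adjusted p = 4.77e-16). Tfrc, the transferrin receptor, rose with EMT6 medium by 0.40 in labelled Cysltr1-/- and 0.35 in WT cultures.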
